A study of Trichoderma reesei with 24 samples.

Results

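Polyketide synthases (PKS) are large multidomain enzymes that join small acyl units into a polyketide chain, the backbone of many fungal pigments, toxins, and signals. Their genes usually sit beside genes for tailoring enzymes, transporters, and regulators, and they are mostly expressed under particular growth or developmental conditions. In *Trichoderma reesei*, *pks4* (TRIREDRAFT_82208) is known for its part in making the green pigment of the conidia, the asexual spores. The genes described here are *pks4* and 8 other PKS genes that lie outside the sorbicillinoid cluster, which makes the yellow pigment of this fungus. They were chosen as a fixed list of identifiers, and all 9 were among the 8755 genes measured. The gene table used here gives no symbol and no product for any of them, so no role is stated for the 8 others.

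RNA-Seq was carried out on mycelia of 2 *T. reesei* strains, with 3 libraries per strain and condition and 24 libraries in all. The WT strain is TU6, a uridine auxotroph derived from QM9414. The Δ*nsd3* strain is a single transformant of TU6 in which CRISPR-Cas9 was used to replace *nsd3*, which encodes the transcription factor Nsd3, with the *pyr4* marker, so the strains also differ in the marker. Both were grown for 24 h on glycerol, for 24 h on glucose, or for 24 h on glycerol followed by transfer to cellulose for 8 h or 48 h. Polyadenylated RNA was sequenced from stranded libraries.

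Values are TPM, transcript abundances scaled to transcript length and to the total of the library, so levels can be compared between genes of a library. Between libraries a TPM value is a share of the total, which the most abundant genes affect. The hydrophobin gene *hfb2* alone averaged 147192 TPM in WT and 27714 TPM in Δ*nsd3* at 8 h on cellulose. Another scaling of the libraries is given further below as an alternative. The deletion was checked first. The level of *nsd3* (TRIREDRAFT_75672) was between 32.2 and 278.2 TPM in the WT libraries and between 0 and 2.42 TPM in the Δ*nsd3* libraries. Estimated depth was 18.2 to 45.7 M reads in 23 libraries and 237.5 M reads for the third Δ*nsd3* glycerol library. Replicates of a group correlated with r of 0.984 to 0.996 in 7 groups, while replicate 2 of WT at 48 h on cellulose stood apart from the other two, with r of 0.942 and 0.948. Since the RNA came from whole mycelium, fewer cells of a type and less RNA per cell cannot be told apart in any level given here.

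Summed over the 9 genes, PKS transcripts were highest at 48 h on cellulose in both strains. The sum was 23.7 ± 4.82 TPM (SD, n = 3) in WT on glycerol, 17.2 ± 1.41 TPM on glucose, 55.6 ± 7.85 TPM at 8 h on cellulose, and 357.6 ± 64.5 TPM at 48 h. In Δ*nsd3* the sums in the same order were 20.7 ± 2.90, 26.2 ± 4.35, 37.6 ± 2.16, and 512.3 ± 85.6 TPM. At 48 h *pks4* alone made up 94.8% ± 0.655 of the sum in WT and 95.8% ± 0.34 in Δ*nsd3*. The leading gene changed with the condition: in both strains it was TRIREDRAFT_60118 on glucose and *pks4* at 48 h. On glycerol and at 8 h on cellulose it was TRIREDRAFT_59482 in WT and *pks4* in Δ*nsd3*.

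Of the 9 genes, 5 reached 1 TPM in at least 3 libraries and entered the test across 7933 genes. These were *pks4*, TRIREDRAFT_59482, TRIREDRAFT_60118, TRIREDRAFT_106272, and TRIREDRAFT_65891. The other 4 (TRIREDRAFT_81964, TRIREDRAFT_65116, TRIREDRAFT_65172, and TRIREDRAFT_105804) were below that filter, and their values are given after those of the tested genes. A gene was called differentially expressed when limma, run on log2(TPM + 1), gave a log2 fold change of 1 or more in size with an adjusted p-value under 0.05. For genes near or below 1 TPM this scale gives smaller fold changes than the ratio of the TPM values.

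**Figure D1:**
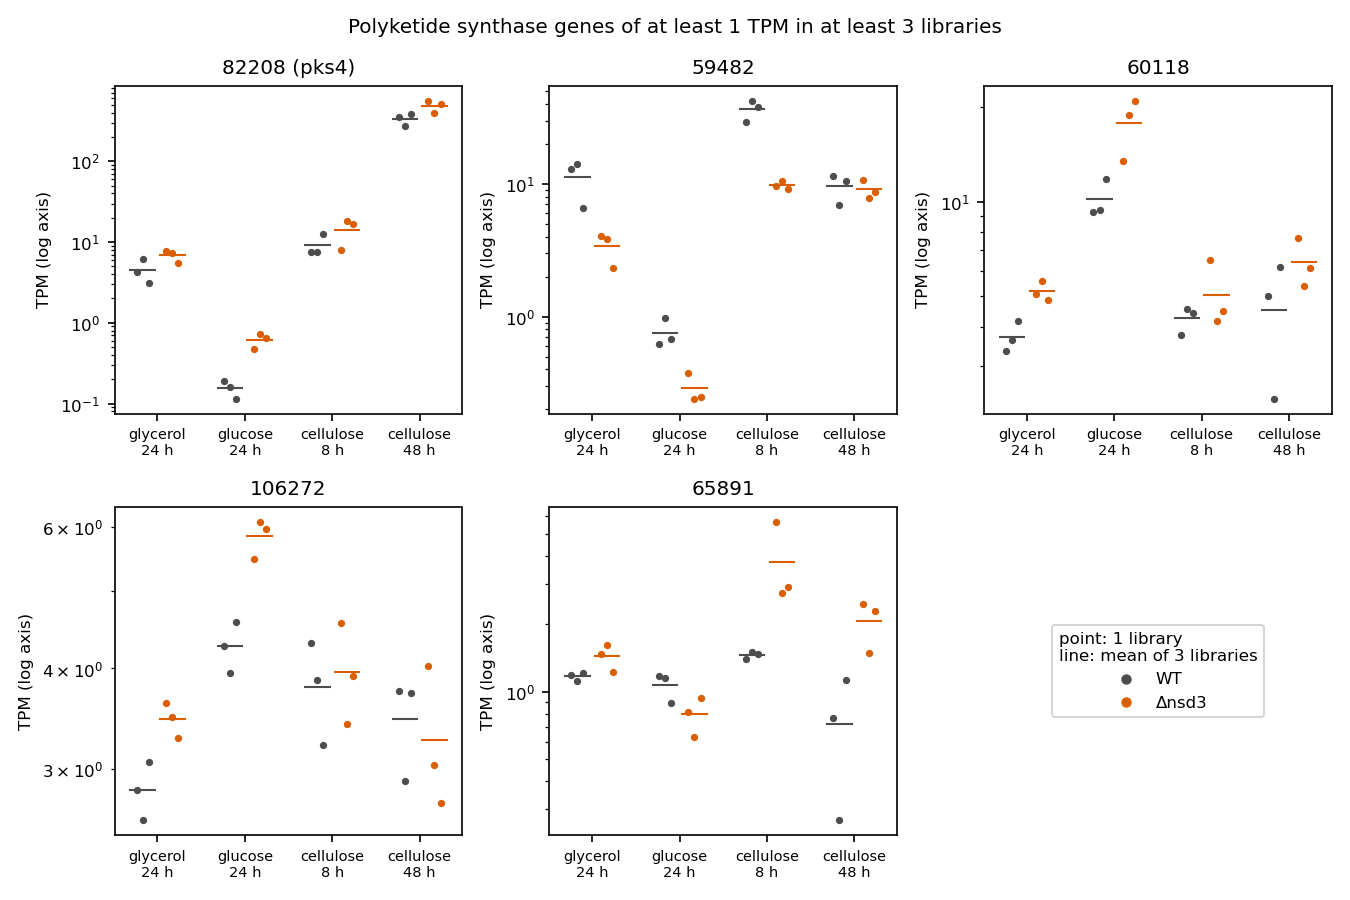
Levels of the 5 PKS genes that passed the filter, in TPM on a log axis that differs between panels, by condition. Each point is 1 library of WT (grey) or Δ*nsd3* (orange) and each line is the mean of 3 libraries. *pks4* lies between 273.3 and 560.5 TPM at 48 h on cellulose and below 1 TPM on glucose, and TRIREDRAFT_59482 is highest in WT at 8 h on cellulose.

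*pks4* had the widest range of the 9 genes. In WT its 3 libraries were at 0.19, 0.162, and 0.115 TPM on glucose, at 4.24, 6.20, and 3.08 TPM on glycerol, at 7.53, 7.55, and 12.6 TPM at 8 h on cellulose, and at 354.3, 273.3, and 389.1 TPM at 48 h. The Δ*nsd3* libraries were at 0.479, 0.726, and 0.655 TPM on glucose, at 7.86, 7.42, and 5.51 TPM on glycerol, at 7.88, 18.2, and 16.5 TPM at 8 h, and at 560.5, 399.7, and 512.8 TPM at 48 h. Ordered by mean level, the conditions ran from glucose through glycerol and 8 h on cellulose to 48 h, with WT below Δ*nsd3* in each. The 2 glucose groups and the 2 groups at 48 h were each separate from their neighbours in this order, whereas the 4 groups on glycerol and at 8 h overlapped their neighbours.

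At 48 h *pks4* was among the most highly expressed genes of the mycelium, above 95.3% to 97.3% of all genes in every library. On glucose it was above 8.1% to 17.1%. From 8 h to 48 h on cellulose its mean rose 36.8-fold in WT and 34.6-fold in Δ*nsd3*. By limma the log2 fold change was 5.08 in each strain, with an SE of 0.26 and adjusted p-values of 2.5e-13 in WT and 3.3e-13 in Δ*nsd3*. The rise differed between the strains by 0.01 (adjusted p = 0.99), with a 95% confidence interval of -0.74 to 0.75. On glucose *pks4* was lower than on glycerol by a limma log2 fold change of -2.21 in WT (adjusted p = 1.7e-07) and -2.28 in Δ*nsd3* (adjusted p = 1.1e-07). The TPM means differed 28.9-fold in WT and 11.2-fold in Δ*nsd3*, and voom gave -4.92 and -3.47. By voom these 2 effects differed by 1.45 (adjusted p = 0.14). After the transfer from glycerol to cellulose for 8 h, *pks4* was higher by limma, by 0.90 in WT (adjusted p = 0.0044) and 0.87 in Δ*nsd3* (adjusted p = 0.012). Over all genes the median of this change was 0.49 in WT and 0.03 in Δ*nsd3*. With libraries scaled by median of ratios these medians were 0.05 and 0.04. Both values of *pks4* were short of the fold required for a call. The WT value passed at 1.01 to 1.11 without replicate 2 of WT on glycerol or replicate 1 or 2 of WT at 8 h, and the other at 1.22 without replicate 1 of Δ*nsd3* at 8 h.

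The level of *pks4* was higher on average in Δ*nsd3* than in WT in each of the 4 conditions, but limma called it in none. The ratio of the means was 1.54 on glycerol and 3.98 on glucose, and on cellulose it was 1.54 at 8 h and 1.45 at 48 h. All Δ*nsd3* libraries were above all WT libraries on glucose and at 48 h, and the strains overlapped on glycerol and at 8 h. The limma log2 fold changes were 0.55, 0.48, 0.53, and 0.53 in that order (SE 0.26), with adjusted p-values of 0.091, 0.15, 0.094, and 0.097. On glucose, where all 6 libraries were under 1 TPM, voom on the estimated reads gave 2.06 (SE 0.66, adjusted p = 0.020), and this was called. Without 1 library the limma value ranged from 0.36 (WT replicate 3 left out) to 0.77 (WT replicate 2) on glycerol, from 0.32 (Δ*nsd3* replicate 2) to 0.88 (Δ*nsd3* replicate 1) at 8 h, and from 0.39 (WT replicate 2) to 0.68 (Δ*nsd3* replicate 2) at 48 h.

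The hydrophobin genes *hfb1* and *hfb2* had been listed to stand for aerial and sporulating structures. Mycelium is the only material in the labels, and *hfb1* was highest on glucose, where *pks4* was lowest. Neither gene is therefore read as a marker here, and only levels are given. The hydrophobin *hfb2* averaged 123814 TPM in WT and 58660 TPM in Δ*nsd3* at 48 h. At 8 h it averaged 147192 and 27714 TPM, on glucose 2092 and 687 TPM, and on glycerol 91068 and 31781 TPM. The hydrophobin *hfb1* averaged 23.6 and 49.0 TPM at 48 h, 5.22 and 3.41 TPM at 8 h, 777.8 and 2083 TPM on glucose, and 120.4 and 42.7 TPM on glycerol, while the elongation factor gene *tef1a*, a marker of living mycelium, stayed between 2731 and 5987 TPM in all 8 groups. Neither hydrophobin moved with *pks4* across all groups, and their part in the levels of *pks4* was not tested.

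TRIREDRAFT_59482 was the only one of the 5 tested genes that limma called between the strains, and it was lower in Δ*nsd3*. At 8 h on cellulose the WT libraries were at 29.2, 42.2, and 38.2 TPM and the Δ*nsd3* libraries at 9.61, 10.5, and 9.15 TPM. On glycerol the WT libraries were at 12.8, 14.2, and 6.57 TPM and the Δ*nsd3* libraries at 4.01, 3.82, and 2.31 TPM. On glucose they were at 0.627, 0.973, and 0.675 TPM in WT and at 0.373, 0.241, and 0.248 TPM in Δ*nsd3*. The Δ*nsd3* libraries were all below the WT libraries in these 3 conditions. At 48 h the strains overlapped, with WT at 11.4, 6.90, and 10.5 TPM and Δ*nsd3* at 10.7, 7.88, and 8.72 TPM.

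The log2 fold change of TRIREDRAFT_59482 between the strains was -1.79 at 8 h (SE 0.23, limma adjusted p = 1.4e-06) and -1.44 on glycerol (SE 0.23, adjusted p = 4.6e-05). On glucose it was -0.45 (adjusted p = 0.14) by limma and -1.34 (adjusted p = 0.041) by voom. At 48 h it was -0.05 (adjusted p = 0.88), with a 95% confidence interval of -0.53 to 0.43. The strain effect at 48 h differed from that at 8 h by 1.74 (SE 0.33, adjusted p = 0.00073), and this difference was called. By limma the effect on glucose differed from that on glycerol by 0.99 (SE 0.33, adjusted p = 0.024), just under the required fold. The limma median of this contrast over all genes was -0.44. By voom, where the effect of TRIREDRAFT_59482 on glucose was larger, its difference was 0.47 (SE 0.55, adjusted p = 0.55). The limma value passed the fold, at 1.01 to 1.30, without any 1 of 6 libraries (WT glycerol replicate 3, WT glucose replicate 2, and Δ*nsd3* glycerol replicates 1 and 2 and glucose replicates 2 and 3).

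Within WT, TRIREDRAFT_59482 rose by 1.67 from glycerol to 8 h on cellulose (adjusted p = 2.9e-06) and then fell by 1.84 from 8 h to 48 h (adjusted p = 1.5e-06). In Δ*nsd3* it rose by 1.32 from glycerol to 8 h (adjusted p = 0.00012), and from 8 h to 48 h the log2 fold change was -0.10 (adjusted p = 0.84). The rise to 8 h differed between the strains by -0.35 (adjusted p = 0.39, 95% confidence interval -1.03 to 0.32). Over all genes the median of this difference was -0.43. With libraries scaled by median of ratios the difference for TRIREDRAFT_59482 was 0.12. The gene thus had a peak at 8 h in WT, separate from all other groups, while in Δ*nsd3* the libraries at 8 h and 48 h overlapped. On glucose it was lower than on glycerol in both strains, by -2.74 in WT (adjusted p = 1.2e-09) and -1.74 in Δ*nsd3* (adjusted p = 1.3e-06).

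Like TRIREDRAFT_106272 and TRIREDRAFT_81964, TRIREDRAFT_60118 had its highest mean on glucose in each strain, and it was the most abundant PKS gene there. In WT its libraries were at 9.25, 9.41, and 11.8 TPM on glucose and at 3.35, 3.63, and 4.18 TPM on glycerol. In Δ*nsd3* they were at 13.5, 18.9, and 20.9 TPM on glucose and at 5.10, 5.60, and 4.86 TPM on glycerol. Both glucose groups lay above all libraries of the other 6 groups, and on glucose and on glycerol the Δ*nsd3* libraries lay above the WT libraries. On cellulose the groups overlapped, with values from 2.37 to 7.68 TPM.

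Glucose against glycerol gave a log2 fold change of 1.24 for TRIREDRAFT_60118 in WT (limma adjusted p = 7.1e-05) and 1.58 in Δ*nsd3* (adjusted p = 3.4e-06), and both were called. The difference between these 2 effects was 0.34 (adjusted p = 0.42, 95% confidence interval -0.32 to 0.997). Between the strains on glucose limma gave 0.73 (SE 0.22, adjusted p = 0.015), short of the required fold. The values were 0.39 on glycerol, 0.19 at 8 h, and 0.48 at 48 h, with adjusted p-values of 0.17, 0.51, and 0.089. WT replicate 2 at 48 h was the lowest of all 24 libraries for this gene, and without it the value at 48 h was 0.16.

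TRIREDRAFT_106272 varied least of the tested genes, with group means from 2.83 to 5.84 TPM. Its highest group was Δ*nsd3* on glucose, with libraries at 5.47, 6.08, and 5.96 TPM, separate from WT on glucose at 4.27, 3.95, and 4.57 TPM. On glycerol the Δ*nsd3* libraries (3.63, 3.48, and 3.28 TPM) were also above the WT libraries (2.83, 2.59, and 3.06 TPM). On cellulose the strains overlapped at both times. Glucose exceeded glycerol by a log2 fold change of 0.46 in WT (limma adjusted p = 0.013) and 0.62 in Δ*nsd3* (adjusted p = 0.0012), and neither reached the required fold. Between the strains the values, in the order glycerol, glucose, 8 h, and 48 h, were 0.22, 0.38, 0.05, and -0.07, with adjusted p-values of 0.24, 0.052, 0.80, and 0.73.

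TRIREDRAFT_65891 was higher in Δ*nsd3* on cellulose. At 8 h the WT libraries were at 1.401, 1.496, and 1.475 TPM and the Δ*nsd3* libraries at 5.65, 2.75, and 2.91 TPM. At 48 h WT was at 0.761, 0.269, and 1.12 TPM and Δ*nsd3* at 2.44, 1.48, and 2.28 TPM. All Δ*nsd3* libraries were above all WT libraries at both times, and also on glycerol, where the means were 1.43 ± 0.20 and 1.17 ± 0.049 TPM. On glucose the strains overlapped, at 1.07 ± 0.15 TPM in WT and 0.793 ± 0.16 TPM in Δ*nsd3*.

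Between the strains TRIREDRAFT_65891 had a limma log2 fold change of 0.91 at 8 h (SE 0.20, adjusted p = 0.00074), and at 48 h of 0.85 (SE 0.20, adjusted p = 0.0017), so the adjusted p-value was passed and the fold was not. With voom on the estimated reads both were called, at 1.26 (adjusted p = 0.00056) and 1.57 (adjusted p = 0.0013). At 8 h the value was 0.64 without replicate 1 of Δ*nsd3*, the library at 5.65 TPM, but 1.05 without replicate 2 and 1.02 without replicate 3, both called. At 48 h it was 0.65 without WT replicate 2 and 1.02 without WT replicate 3. On glycerol it was 0.16 (adjusted p = 0.53) and on glucose -0.21 (adjusted p = 0.44). The effect at 8 h exceeded that on glycerol by 0.74 (adjusted p = 0.041). Over all genes the median of this contrast was -0.43, and 0.02 with libraries scaled by median of ratios. Without replicate 1 of Δ*nsd3* at 8 h the difference for TRIREDRAFT_65891 was 0.48 (adjusted p = 0.12). It kept an adjusted p-value under 0.05 only without replicate 2 or 3 of that group.

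Within the strains, TRIREDRAFT_65891 in Δ*nsd3* was higher at 8 h on cellulose than on glycerol by 0.92 (adjusted p = 0.00099), against 0.18 in WT (adjusted p = 0.44). Without replicate 2 or 3 of Δ*nsd3* at 8 h the first value passed the fold, at 1.07 and 1.04. From 8 h to 48 h it was lower by -0.60 in Δ*nsd3* (adjusted p = 0.030) and -0.55 in WT (adjusted p = 0.029), both short of the required fold. Without WT replicate 2 at 48 h the WT value was -0.35 (adjusted p = 0.20). Without replicate 1 of Δ*nsd3* at 8 h the Δ*nsd3* value was -0.33 (adjusted p = 0.23), and without its replicate 2 at 48 h it was -0.45 (adjusted p = 0.16).

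Counted over the 5 tested genes, 1 was called between the strains on glycerol and 1 at 8 h on cellulose, in both cases TRIREDRAFT_59482 in the lower direction. Over all genes tested, 10.5% were called on glycerol (3.1% lower) and 17.2% at 8 h (8.11% lower). On glucose and at 48 h limma called 0 of the 5, against 9.59% and 13.5% of all genes. At an unadjusted p-value under 0.05 there were 2 of 5 on glucose and 3 of 5 at 48 h, against 43.7% and 49.3% of all genes. Voom could test 8 genes, of which TRIREDRAFT_65172 is left out of the counts given here because it passed the read filter through the group in which it was high. Of the other 7, voom called 1 on glycerol (15.6% of all genes), 3 on glucose (13.5%), 3 at 8 h (21.5%), and 1 at 48 h (16.9%). For the 5 genes tested by limma, the median strain effect (log2) was 0.22, 0.38, 0.19, and 0.48 for glycerol, glucose, 8 h, and 48 h, beside 0.29, -0.16, -0.15, and 0.03 over all genes. With 5 to 7 genes these shares were not tested against the background.

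The libraries of the strains did not overlap for 4 of the 5 tested genes on each soluble carbon source and for 2 of 5 at each time on cellulose. Over all genes the share without overlap, in the order glycerol, glucose, 8 h, and 48 h, was 58.7%, 60.2%, 57.2%, and 40.6%. When libraries were scaled by median of ratios in place of TPM, the medians over all genes became -0.01, -0.02, -0.01, and -0.01. Under that scaling the strain effects of TRIREDRAFT_106272 and TRIREDRAFT_65891 on glycerol were -0.047 and -0.038 in place of 0.22 and 0.16.

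Between the carbon sources, more of the tested genes were called by limma for glucose against glycerol than after the transfer to cellulose. Between glucose and glycerol 3 of 5 were called in WT, against 22.1% of all genes, and 3 of 5 in Δ*nsd3*, against 24.9%. In each strain these were *pks4* and TRIREDRAFT_59482, which were lower on glucose, and TRIREDRAFT_60118, which was higher. Between glycerol and 8 h on cellulose 1 of 5 was called in WT (26% of all genes) and 1 of 5 in Δ*nsd3* (10.9%), TRIREDRAFT_59482 in both. Between 8 h and 48 h 2 of 5 were called in WT (15.8% of all genes), *pks4* and TRIREDRAFT_59482, and 1 of 5 in Δ*nsd3* (8.86%), *pks4*. By voom the counts of 7 were 5 in WT (26.4%) and 4 in Δ*nsd3* (31.3%) for glucose against glycerol, and 3 in WT (31.3%) and 3 in Δ*nsd3* (14.8%) for 8 h against glycerol. Between 8 h and 48 h they were 3 in WT (18.2%) and 2 in Δ*nsd3* (11.1%). The limma medians over all genes were 0.16 in WT and -0.28 in Δ*nsd3* for glucose against glycerol. They were 0.49 and 0.03 for 8 h against glycerol, and -0.18 and 0 for 48 h against 8 h. These comparisons share libraries with each other and with the strain comparisons.

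For the difference of the strain effect between conditions, limma called 1 of 5 between 48 h and 8 h, against 12.2% of all genes. It called 0 of 5 between glucose and glycerol (16.6% of all genes) and 0 of 5 between 8 h and glycerol (17.6%). In each of these 2 comparisons 1 of 5 had an unadjusted p-value under 0.05, against 44.7% and 48.9% of all genes. Of the same 7 genes voom called 1 between glucose and glycerol (15.7% of all genes), 1 between 8 h and glycerol (19.5%), and 2 between 48 h and 8 h (12.7%). By limma the median difference over all genes was -0.44 between glucose and glycerol, -0.43 between 8 h and glycerol, and 0.14 between 48 h and 8 h. With median of ratios these medians were 0.01, 0.02, and -0.05.

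**Figure D2:**
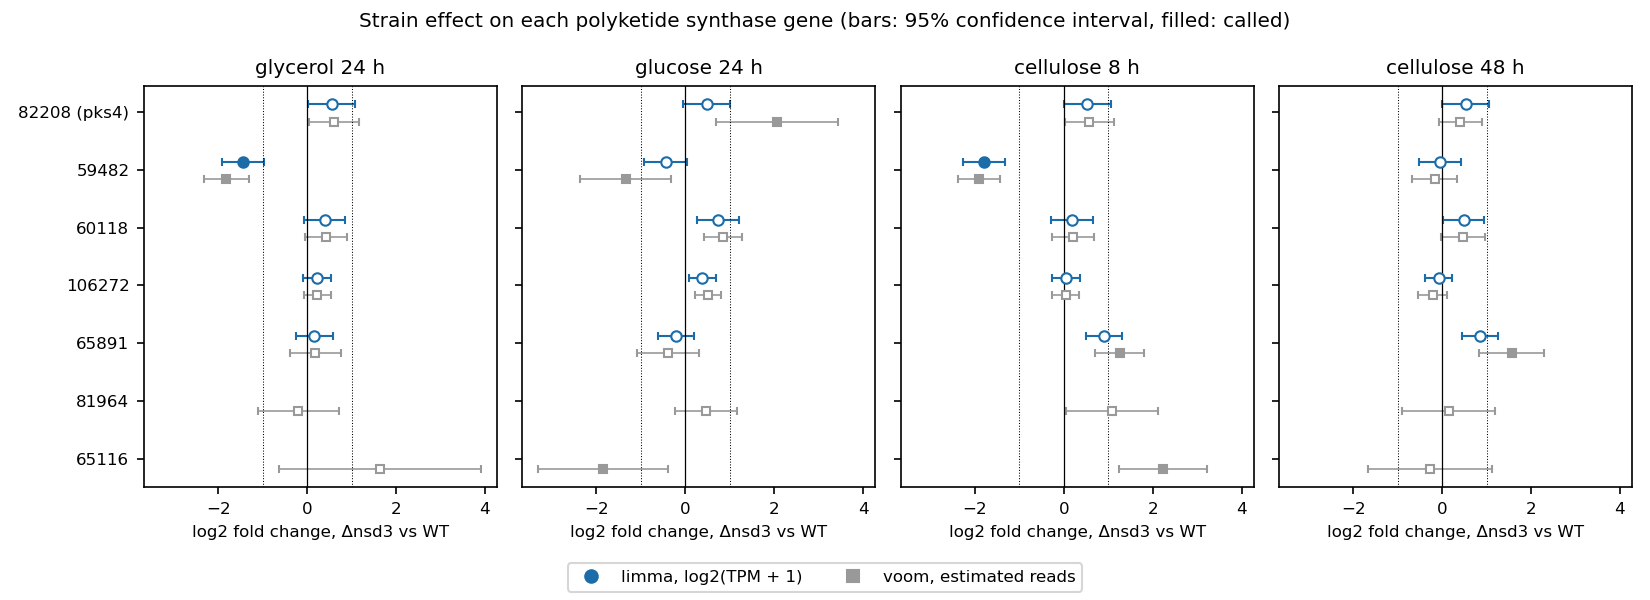
Strain effect on 7 PKS genes in each condition, as the log2 fold change of Δ*nsd3* against WT with its 95% confidence interval. Circles are limma on log2(TPM + 1) for the 5 genes that passed the filter, squares are voom on estimated reads, filled symbols were called, and dotted lines mark log2 fold changes of -1 and 1. TRIREDRAFT_59482 is called on glycerol and at 8 h by both methods.

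Among the 4 genes below the filter, TRIREDRAFT_81964 was the most abundant, at 0.128 to 1.04 TPM. It was highest on glucose, with WT libraries at 0.701, 0.737, and 0.587 TPM and Δ*nsd3* libraries at 0.726, 0.930, and 1.04 TPM. On glycerol the ranges were 0.128 to 0.346 TPM in WT and 0.157 to 0.367 TPM in Δ*nsd3*. Every glucose library was above every glycerol library. On the estimated reads, voom gave a log2 fold change of glucose over glycerol of 1.41 in WT (adjusted p = 0.0093) and 2.07 in Δ*nsd3* (adjusted p = 2.1e-05), comparisons in which voom called 26.4% and 31.3% of all genes. At 8 h on cellulose the Δ*nsd3* libraries (0.680, 0.331, and 0.330 TPM) were all above the WT libraries (0.218, 0.225, and 0.132 TPM), and voom gave 1.08 (adjusted p = 0.078).

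TRIREDRAFT_65116 was at most 0.476 TPM and was highest in Δ*nsd3* at 8 h on cellulose. Its Δ*nsd3* libraries there were at 0.476, 0.374, and 0.333 TPM, from about 188.6 reads in all, and its WT libraries at 0.058, 0.128, and 0.070 TPM, from about 62.0 reads. The Δ*nsd3* group at 8 h was separate from all other groups. Voom gave a log2 fold change between the strains of 2.23 at 8 h (SE 0.48, adjusted p = 0.00055). At 48 h it gave -0.27 (adjusted p = 0.77), and the difference of these effects was -2.503 (SE 0.83, adjusted p = 0.037). In WT on glycerol the gene was at 0 in all 3 libraries, which allows an expected count of up to 3 reads in each. Against that floor of 0.0127 TPM, the observed WT mean was 6.7-fold higher at 8 h on cellulose and 8.64-fold higher on glucose. The counting error of the 2 higher means is not included in these ratios. On glucose the WT libraries were at 0.061, 0.095, and 0.174 TPM and the Δ*nsd3* libraries at 0.015, 0.141, and 0.005 TPM, and although the strains overlapped voom gave -1.85 (adjusted p = 0.048).

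TRIREDRAFT_65172 was detected mainly in WT at 8 h on cellulose. The WT libraries there were at 0.056, 0.109, and 0.060 TPM, from about 60 reads in all, and the Δ*nsd3* libraries at 0, 0, and 0.008 TPM, from about 2 reads. WT at 8 h was separate from the other 7 groups, which held at most 0.05 TPM in any library. Per read sequenced, the ratio of WT to Δ*nsd3* was 20.1 over the pooled reads of the 3 libraries. This compares the group in which the gene was highest, so the ratio is only a description and was not tested. TRIREDRAFT_65172 reached 10 reads in 3 libraries through WT at 8 h itself, so no voom test is given for it.

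TRIREDRAFT_105804 was at or near 0 throughout, with at most 6 reads in any library and no more than 0.029 TPM. It was at 0 in all 3 libraries of Δ*nsd3* at 48 h, and no comparison was possible at this depth.

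**Figure D3:**
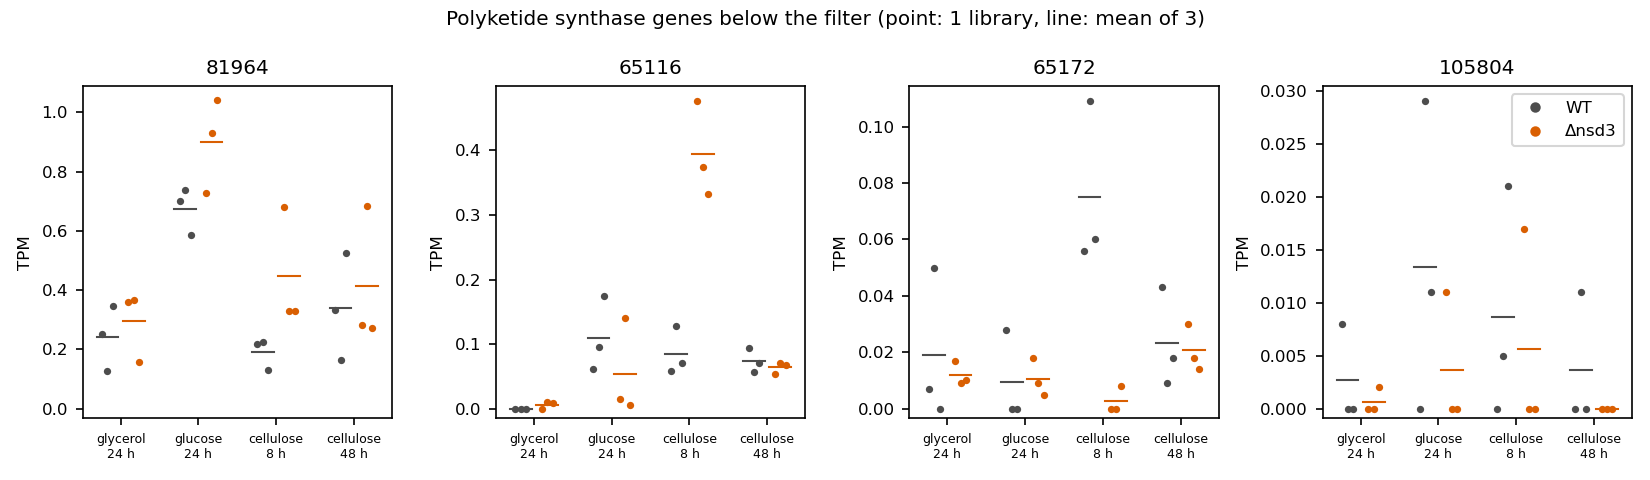
Levels of the 4 PKS genes below the filter, in TPM on a linear axis that differs between panels, by condition. Each point is 1 library of WT (grey) or Δ*nsd3* (orange) and each line is the mean of 3 libraries. TRIREDRAFT_65116 stands highest in Δ*nsd3* at 8 h on cellulose, at 0.333 to 0.476 TPM, and TRIREDRAFT_65172 in WT at 8 h, at 0.056 to 0.109 TPM.

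The 5 tested genes did not share a pattern across the 24 libraries. The highest Pearson r of log2(TPM + 1) between them was 0.84, for TRIREDRAFT_60118 and TRIREDRAFT_106272, both highest on glucose. The lowest was -0.78, for TRIREDRAFT_60118 and TRIREDRAFT_59482. For *pks4* and TRIREDRAFT_59482, which were both low on glucose, r was 0.51. Libraries of a group share their condition and strain, so these values only describe the patterns.

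Over the same 24 libraries, the genes most like *pks4* were TRIREDRAFT_124079, with r of 0.98, and TRIREDRAFT_107960, with r of 0.98. For TRIREDRAFT_59482 they were TRIREDRAFT_59368, with r of 0.98, and *pdi1* (TRIREDRAFT_122415), a protein disulfide isomerase gene of the endoplasmic reticulum, with r of 0.97. The genes closest to TRIREDRAFT_60118 were TRIREDRAFT_119710 and TRIREDRAFT_45369, each with r of 0.93. Those closest to TRIREDRAFT_106272 were TRIREDRAFT_21653 and TRIREDRAFT_79326, each with r of 0.90, and those closest to TRIREDRAFT_65891 were TRIREDRAFT_108354 and TRIREDRAFT_108345, each with r of 0.88. TRIREDRAFT_124079 and TRIREDRAFT_59368 are also neighbours of the PKS gene in the genome.

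Because PKS genes tend to lie in clusters, up to 5 genes on each side of each PKS gene were examined in the order of the RefSeq gene table. There were 88 such neighbours, of which 86 were measured and 62 passed the filter. Between the strains 1 neighbour was higher and 6 were lower on glycerol, or 11.3% of the 62, beside 10.5% of all genes. On glucose 2 were higher and 9 lower (17.7% beside 9.59%), at 8 h 4 were higher and 12 lower (25.8% beside 17.2%), and at 48 h 4 were higher and 4 lower (12.9% beside 13.5%). Neighbours differ in number between the PKS genes and are not independent of each other, and these shares were not tested.

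Next to *pks4*, 2 genes shared its rise on cellulose. TRIREDRAFT_124079, 2 places after it, had a mean of 520 TPM in WT and 426 TPM in Δ*nsd3* at 48 h, and of 2.62 and 6.86 TPM at 8 h. TRIREDRAFT_52476, 1 place after it, was far more abundant, with means of 4668 TPM in WT and 2593 TPM in Δ*nsd3* at 48 h, and 719.6 and 311.3 TPM at 8 h. Between the strains at 8 h TRIREDRAFT_52476 was lower in Δ*nsd3* by a log2 fold change of -1.22 (adjusted p = 0.00059), and TRIREDRAFT_124079 was higher by 1.02 (adjusted p = 0.0042). The call of TRIREDRAFT_124079 was lost without any 1 of 4 libraries (WT replicate 1 or 2 or Δ*nsd3* replicate 2 or 3), at 0.75 to 0.94. On glucose TRIREDRAFT_52476 was higher by 1.11 (adjusted p = 0.0023), and by 0.83, not called, without WT replicate 3. The 2 neighbours thus moved in opposite directions at 8 h, while *pks4* was not called.

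Immediately before TRIREDRAFT_59482, TRIREDRAFT_59368 had the same order of conditions in WT at a higher level. Its WT libraries were at 204.9, 228.4, and 200.3 TPM at 8 h on cellulose and its Δ*nsd3* libraries at 23.7, 46.8, and 27.1 TPM, a log2 fold change of -2.72 (SE 0.24, adjusted p = 7.3e-09). On glycerol the fold change was -1.76 (adjusted p = 7.0e-06). It was called lower in the same 2 conditions as the PKS gene beside it. Of the other neighbours of TRIREDRAFT_59482, TRIREDRAFT_121163, 5 places after it, was higher in Δ*nsd3* by 2.63 at 8 h (adjusted p = 1.1e-06), by 1.43 on glycerol (adjusted p = 0.0020), and by 1.48 at 48 h (adjusted p = 0.0013), so the lower level did not extend along the region.

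Near TRIREDRAFT_65172, the genes 1 and 2 places after it were also lower in Δ*nsd3* at 8 h. TRIREDRAFT_79726 had libraries at 17.5, 17.6, and 15.6 TPM in WT and at 0.734, 2.63, and 2.01 TPM in Δ*nsd3*, a log2 fold change of -2.74 (adjusted p = 3.5e-08). TRIREDRAFT_64996 had a fold change of -1.92 (adjusted p = 1.1e-07). The first was also called lower on glycerol (-1.28, adjusted p = 0.00088) and the second at 48 h (-1.32, adjusted p = 3.5e-05). The 2 neighbours were thus called lower in Δ*nsd3* at that time, while the PKS gene was lower on a few reads only and was not tested.

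Near TRIREDRAFT_81964, all 5 genes on one side of it were lower in Δ*nsd3* on glucose, by -1.34 to -1.91, while the 4 tested on the other side were not called. The leading ones were TRIREDRAFT_69650 (-1.91, adjusted p = 0.00011) and TRIREDRAFT_111739 (-1.85, adjusted p = 6.1e-06), of which the first was also lower on glycerol (-1.26, adjusted p = 0.0048). TRIREDRAFT_81964 itself did not follow them: on glucose its Δ*nsd3* mean was 0.90 TPM and its WT mean 0.675 TPM, with overlapping libraries and a voom log2 fold change of 0.46 (adjusted p = 0.32).

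Near TRIREDRAFT_60118, TRIREDRAFT_106538, 2 places before it, was the only neighbour called. It was higher in Δ*nsd3* on glucose by 2.83 (adjusted p = 4.2e-07) and lower at 48 h by -1.41 (adjusted p = 0.00098). At 8 h it was lower by -1.01 (adjusted p = 0.010), and not called without WT replicate 3 (-0.88) or Δ*nsd3* replicate 1 (-0.78). It averaged 11536 TPM in WT at 48 h, a condition in which TRIREDRAFT_60118 was at 4.52 TPM. Near TRIREDRAFT_65891, the genes 1 and 2 places after it were lower in Δ*nsd3* at 8 h, TRIREDRAFT_65711 by -1.95 (adjusted p = 1.8e-08) and TRIREDRAFT_65965 by -1.49 (adjusted p = 2.9e-05), opposite to the PKS gene. TRIREDRAFT_65711 was also lower on glycerol, by -1.78 (adjusted p = 1.4e-07).

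Near TRIREDRAFT_65116, TRIREDRAFT_109346 was higher by 1.73 at 48 h (adjusted p = 0.00076), or by 1.07 without WT replicate 2, and lower by -1.64 on glucose (adjusted p = 0.0014). TRIREDRAFT_64925 was lower by -1.21 at 8 h (adjusted p = 0.00046). Near TRIREDRAFT_106272, TRIREDRAFT_39587 was higher by 2.05 at 48 h (adjusted p = 4.1e-05). It was also higher by 1.004 at 8 h (adjusted p = 0.016), a call lost without WT replicate 2 or 3 or Δ*nsd3* replicate 1, at 0.735 to 0.897. TRIREDRAFT_47153 was lower by -1.38 on glucose (adjusted p = 6.8e-06). Near TRIREDRAFT_105804, 1 of 4 tested neighbours was called, TRIREDRAFT_105808, lower by -1.31 at 48 h (adjusted p = 4.6e-06).

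**Figure D4:**
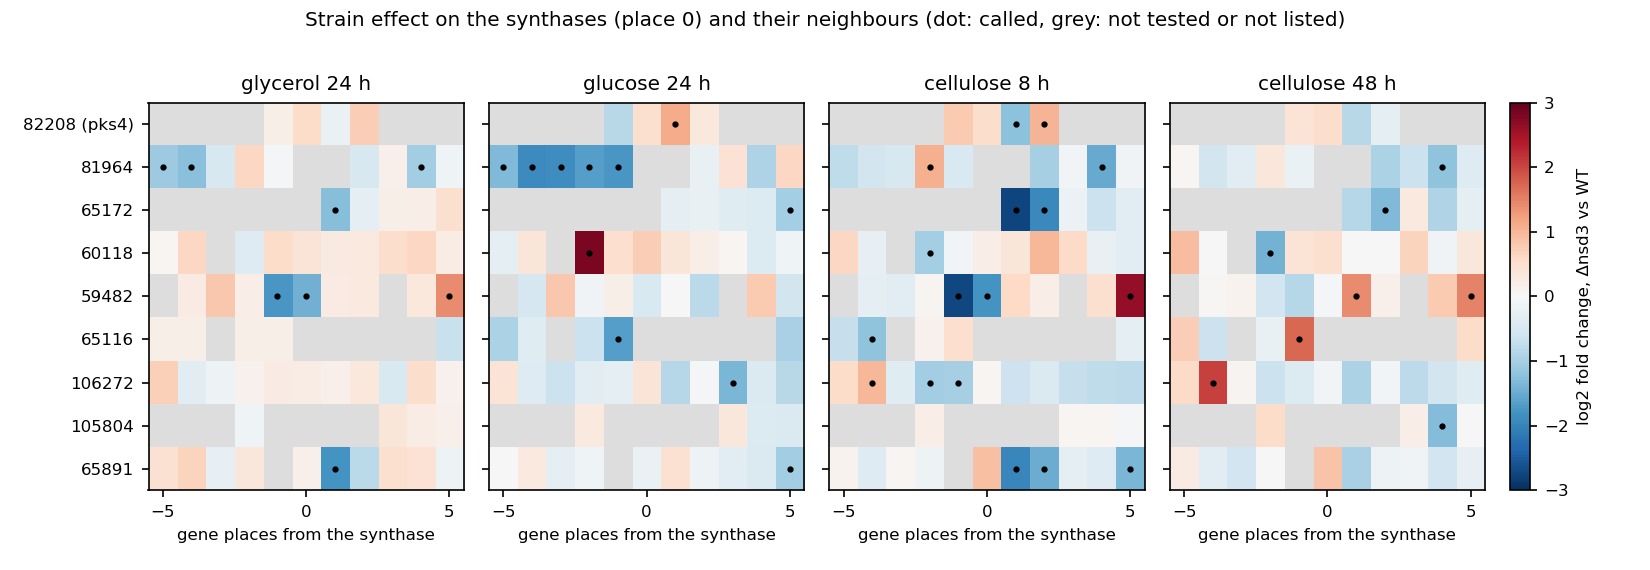
Strain effect on the 9 PKS genes (place 0) and on up to 5 genes on each side, as the log2 fold change of Δ*nsd3* against WT in colour, 1 row per PKS gene and 1 panel per condition. Dots mark called genes and grey marks genes not tested or not listed. All 5 genes before TRIREDRAFT_81964 are lower on glucose, and TRIREDRAFT_59482 and the gene before it are lower on glycerol and at 8 h on cellulose.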

How the data were processed

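RNA-Seq reads were processed by the authors. Per the labels, the tools were Trim Galore 0.6.7, HISAT2 2.2.1, featureCounts, and DESeq2, and the authors deposited TPM for 8755 genes in 24 libraries. Read counts were not used here, so the TPM values were analysed as log2(TPM + 1). The 7933 genes that reached 1 TPM in 3 or more libraries were fitted in 1 model of 8 group means with limma 3.58.1 (lmFit, eBayes with trend) in R 4.3.3. Tests were two-sided, and Benjamini-Hochberg adjustment covered every gene tested in a comparison. With 3 libraries against 3, an exact permutation test cannot go below p = 0.1 and was not used. The p-values measure only the spread between these libraries, since the labels do not say that they came from separate cultures.

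Depth was estimated from the steps between low TPM values, with gene spans from the RefSeq table of another assembly than the build of the files. In the libraries 70.1% to 85.0% of low values fell within 0.1 of a whole read, where chance gives 20%. Genes with at least 10 estimated reads in 3 libraries were also tested with voom, an alternative. For a gene at 0 in a library, an expected count of up to 3 reads was allowed, which covers counting error only. The limma model was tested on simulated data for the strain comparison on glucose over 7933 genes, where it recovered 196 of 200 changed genes and called 1 unchanged gene. The changed genes were drawn only from those above about 10 TPM in WT on glucose. The recovery therefore does not cover genes at lower levels, such as *pks4* on glucose.

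Same-numbered libraries of the strains deviated together on glycerol (correlations of 0.114, 0.197, and 0.202) and at 48 h (0.214, 0.174, and 0.291). They did not do so on glucose (-0.082 to 0.088), and at 8 h the correlations were mixed (0.187, -0.082, and 0.228). The tests reported here used no pairing. A replicate block was added only as an alternative, and then in every condition.

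The members and lists were chosen with earlier results of these data known. Named genes were the 9 PKS genes, *nsd3*, the 2 genes most like each tested PKS gene, and the at most 2 neighbours of each PKS gene with the largest change among those called between the strains. Other secondary metabolism genes were to be matched by symbol or product, and 0 matched. No sequence is shown, and the accessibility data of the study were not used here.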

Additional observations from a re-analysis of the deposited data

Results flagged for a closer look

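For 2 PKS genes the strain effect differed between conditions by a limma interaction contrast with an adjusted p-value under 0.05. TRIREDRAFT_59482 had a strain effect of -1.79 at 8 h on cellulose and of -0.05 at 48 h, a difference of 1.74 (adjusted p = 0.00073). For the same gene the effect was -1.44 on glycerol and -0.45 on glucose, a difference of 0.99 (adjusted p = 0.024). By voom these effects were -1.81 and -1.34, and their difference was 0.47 (adjusted p = 0.55). TRIREDRAFT_65891 had an effect of 0.16 on glycerol and 0.91 at 8 h, a difference of 0.74 (adjusted p = 0.041). It was 0.48 (adjusted p = 0.12) without replicate 1 of Δ*nsd3* at 8 h. The differences of 0.99 and 0.74 were below the fold required for a call. Over all genes the limma medians of these contrasts were -0.44 and -0.43. Groups of 3 libraries were too small for a test of single outlying libraries.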

How the results depend on the processing

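Alternatives changed 1 choice at a time, except voom, which changed the input, the filter, and the weights together. Adding the replicate block, which was applied in every condition, changed no call among the PKS genes. With it the strain effect of TRIREDRAFT_59482 was -1.44 on glycerol and -1.79 at 8 h.

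The counts of tested PKS genes called changed with the pseudocount and with voom, and the cause was not tested. With a pseudocount of 5 they fell to 0 for the strains on glycerol, where 465 of 7933 genes were called. They fell to 1 for glucose against glycerol in WT (1181 genes) and 0 for 8 h against glycerol in Δ*nsd3* (541). With a pseudocount of 0.1 they were, for the strains, 2 on glucose (1113 genes), 2 at 8 h (1659), and 1 at 48 h (1359). For 8 h against glycerol they were 2 in WT (2599 genes) and 2 in Δ*nsd3* (1081). Over all genes the number called moved in the same direction in each of these comparisons. For voom the counts are of 7 genes, without TRIREDRAFT_65172. Between the strains they were 3 on glucose (13.5% of all genes), 3 at 8 h (21.5%), and 1 at 48 h (16.9%). They were 5 for glucose against glycerol in WT (26.4%) and, for 8 h against glycerol, 3 in WT (31.3%) and 3 in Δ*nsd3* (14.8%). For 48 h against 8 h in Δ*nsd3* the count was 2 (11.1%). For the difference of the strain effect voom gave 1 for glucose against glycerol (15.7%), 1 for 8 h against glycerol (19.5%), and 2 for 48 h against 8 h (12.7%). Median of ratios gave 1 for each of the first 2 of these differences, with 790 and 940 of 7933 genes called.

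Neighbours called between the strains numbered 7, 11, 16, and 8 of 62 for glycerol, glucose, 8 h, and 48 h. Beside these, 832, 761, 1367, and 1067 of 7933 genes were called. With a pseudocount of 5 the neighbours became 3, 6, 8, and 4, beside 465, 383, 991, and 711 genes. With 0.1 they were 18 on glucose (1113 genes) and 14 at 48 h (1359). With voom, which tested 71 neighbours, they were 12 on glycerol and 15 at 48 h, beside 1303 and 1405 of 8326 genes. With a filter at 5 TPM they were 5 of 48 at 48 h, beside 1016 of 7055 genes.

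Signs changed only in values that were not called. Under median of ratios these were the strain effects on glycerol of TRIREDRAFT_106272 (-0.047) and TRIREDRAFT_65891 (-0.038), and the WT change of TRIREDRAFT_65891 from glycerol to 8 h (-0.11). TRIREDRAFT_59482 also changed sign there, from -0.35 to 0.12 for the difference between the strains in its rise to 8 h. The difference between the strains in the rise of *pks4* (TRIREDRAFT_82208) to 48 h became -0.034 with a pseudocount of 0.1, -0.18 with median of ratios, and -0.16 with voom.

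Leaving out 1 library at a time gave 1 to 2 PKS genes called for the strains at 8 h, with 1300 to 1429 of 7933 genes called. At 48 h it gave 0 to 1 (858 to 1396 genes). For 8 h against glycerol it gave 1 to 2 in WT (1825 to 2358 genes) and 1 to 2 in Δ*nsd3* (804 to 893). For the difference of the strain effect on glucose and glycerol it gave 0 to 1 (1126 to 1513 genes). The 1 was TRIREDRAFT_59482, which passed at 1.01 to 1.30 without any 1 of 6 libraries. The strain effect of TRIREDRAFT_106272 ranged from -0.0402 to 0.13 at 8 h and from -0.20 to 0.0207 at 48 h. That of TRIREDRAFT_59482 at 48 h ranged from -0.25 to 0.0779, and the difference between the strains in the rise of *pks4* from -0.34 to 0.21.

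Over all genes, the number called between the strains moved from 832 on glycerol to 465 with a pseudocount of 5 and 1303 with voom. With a pseudocount of 5 it moved from 761 to 383 on glucose and from 1067 to 711 at 48 h. Under median of ratios the share of called genes that were higher in Δ*nsd3* moved from 70.4% to 41.0% on glycerol, from 32.7% to 51.9% on glucose, and from 53.0% to 64.5% at 8 h. Genes at or under 3 reads in a library cannot be compared at this depth, which takes in TRIREDRAFT_105804 and many values of TRIREDRAFT_65172.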
